A study of Arabidopsis thaliana with 36 samples.

Results

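LHCB4.2 (AT3G08940), LHCB4.3 (AT2G40100) and PSAE-1 (AT4G28750) are nuclear genes of Arabidopsis thaliana whose proteins work in the thylakoid membrane of chloroplasts. They were chosen by name, with earlier results of these data known. Each was read by 1 probe set, so 3 of the 22810 probe sets on the array are described here. The plants were Col-0 and served as controls of a stress series: their boxes were carried, opened and closed and their rafts lifted as for stressed plants, but no stress was given. No gene was altered and no agent was added in any group. Shoots and roots were collected at 0, 0.25, 0.5, 1, 3, 4, 6, 12 and 24 h from day 16, with 2 arrays for each of the 18 combinations. The start lay 3 h after lights on in a light period of 16 h at 24 °C, so 12 h lay 15 h after lights on, near the end of the light period. The plants of 24 h were sampled at the hour of day of those at 0 h.

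In photosynthesis, light is caught by antenna proteins that carry chlorophyll and is passed to the reaction centres of photosystem II and photosystem I. LHCB4, also called CP29, is a monomeric antenna protein that sits between the core of photosystem II and its outer trimeric antenna. Arabidopsis carries 3 LHCB4 genes, LHCB4.1, LHCB4.2 and LHCB4.3. PSAE is a small subunit on the stromal face of photosystem I, next to the site where ferredoxin docks to take up electrons, and PSAE-1 is one of the genes that encode it. Transcripts of antenna genes are known for rhythms of the day in leaves. No probe or promoter sequence was used here.

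The deposited value is a signal in arbitrary units, scaled so that each array has a trimmed mean of about 100. The signal of one probe set cannot be set against that of another, so levels are compared within a gene only. Changes are log2 differences of signal plus 10 from limma, with the standard error (SE), and p-values were adjusted over 15091 probe sets that reached 40 on 2 or more arrays. All 3 genes passed this filter, which each met on all 18 shoot arrays. Separate plants are not named in the labels for the 2 arrays of a group. The p-values then measure only the spread between 2 samples, possibly technical, and precision is limited by the number of arrays.

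The arrays bore out the tissue labels in their markers, of which 3 of the 6 chosen for each tissue were named on the array. The summed signal of the Calvin cycle genes PRK, SBPASE and RCA ran between 10800 and 14300 in shoots, against 90.3 to 185 in roots. The summed signal of the root genes PYK10, EXPA7 and EXPA18 ran between 464 and 2030 in shoots, against 3200 to 4150 in roots. PYK10 made up most of this sum. It averaged 3490 in roots and 813 in shoots, against 48.3 and 12.9 for EXPA7 and 59.6 and 19.7 for EXPA18. For 94 probe sets bright in roots and dimmer in shoots by 16-fold or more, the median share of the root signal was 5.41% on shoot 0 h replicate 1 and 1.08 to 3.36% on the other shoot arrays. Differences of the 3 genes from 0 h in shoots are also given without that array; those of other genes were not recomputed without it. Across probe sets, arrays of one group correlated at 0.971 to 0.992.

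The values and calls of the 3 genes over the day in shoots were unlike. A call for one gene and none for another is not a test between them, and the planned tests between pairs, given below, did not pass. LHCB4.2 held a high signal until 6 h, was far lower at 12 h and was high again at 24 h. LHCB4.3 had its lowest signals at 4 and 6 h, where LHCB4.2 did not differ from 0 h past the threshold. At 12 h the 2 genes moved in opposite directions, with the highest signal of LHCB4.3. PSAE-1 showed no change past the threshold at any time. By the moderated F-test of limma over the 9 times, 2 of the 3 genes changed in shoots, where 62.6% of all probe sets did. That share is so large that the count of 2 says little; sizes and times are given gene by gene.

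LHCB4.2 had signals of 3870 and 4590 in shoots at 0 h, 4920 and 5070 at 0.25 h, 4310 and 4790 at 0.5 h, and 4130 and 5370 at 1 h. It had 5390 and 4960 at 3 h, 4370 and 4970 at 4 h, 5570 and 4700 at 6 h, 1440 and 1350 at 12 h, and 5250 and 4950 at 24 h. Both 12 h arrays lay below the other 16, which ran between 3870 and 5570, and no other time stood apart. Such a position at 12 h, with both arrays below all other shoot arrays, was held by 6.51% of probe sets.

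At 12 h against 0 h, LHCB4.2 fell by 1.59 ± 0.2 on the log2 scale, to 1390 ± 62.5 at 12 h against 4230 ± 510 at 0 h (SD, n = 2 each), or 33.2% of the 0 h level (limma, adjusted p = 2.2e-06). At 12 h 15.9% of probe sets were lower than at 0 h. Without shoot 0 h replicate 1 the difference was -1.72 (adjusted p = 2.4e-05). At the other 7 times its difference from 0 h lay between 0.11 and 0.29, each with an adjusted p of at least 0.31, and without shoot 0 h replicate 1 between -0.02 and 0.17. After the values had been seen, 12 h was also set against 6 h. LHCB4.2 was then lower at 12 h (1390 ± 62.5) than at 6 h (5140 ± 613) by a log2 difference of -1.87 ± 0.2 (adjusted p = 6.2e-07), the 58th lowest value of 15091, where 9.4% of probe sets fell. LHCB4.2 rose by 1.87 ± 0.2 at 24 h against 12 h (5100 ± 209 at 24 h, adjusted p = 2.3e-07), while 12% of probe sets rose. With the 12 h samples left out, the time course of LHCB4.2 did not pass (adjusted p = 0.84), where 56.1% of probe sets did, so the call rests on the 2 arrays of 12 h.

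LHCB4.3 had signals of 534 and 805 in shoots at 0 h, 498 and 443 at 0.25 h, 620 and 684 at 0.5 h, and 563 and 641 at 1 h. It had 478 and 308 at 3 h, 209 and 262 at 4 h, 208 and 210 at 6 h, 1480 and 1300 at 12 h, and 894 and 771 at 24 h. The 4 arrays of 4 and 6 h were the lowest of the 18 and did not overlap with any other time, and both 12 h arrays were the highest. Both 12 h arrays lay above all other shoot arrays for 7.79% of probe sets. The share with the 4 and 6 h arrays lowest was not determined.

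Against 0 h, LHCB4.3 fell by 0.76 ± 0.19 at 3 h (adjusted p = 0.0061), by 1.45 ± 0.19 at 4 h (adjusted p = 8.8e-06) and by 1.61 ± 0.19 at 6 h (adjusted p = 7.9e-07), while 11, 9.49 and 15.9% of probe sets fell at these times. The 6 h signal of 209 ± 1.33 was 32.9% of the 0 h signal of 669 ± 192 (SD, n = 2 each). The call at 3 h was lost without shoot 0 h replicate 2 (log2 difference -0.46, adjusted p = 0.13) or shoot 3 h replicate 2 (-0.45, adjusted p = 0.15), and those at 4 and 6 h were not lost in any alternative. Without shoot 0 h replicate 1, the differences at 3, 4 and 6 h were -1.05, -1.74 and -1.9 (adjusted p at most 0.0018), and that at 0.25 h passed as well (-0.77, adjusted p = 0.036), where all arrays gave -0.47 ± 0.19 (adjusted p = 0.11).

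At 12 h LHCB4.3 was higher than at 0 h by 1.07 ± 0.19, or 2.1-fold (1390 ± 124 at 12 h, adjusted p = 0.00016), where 18.5% of probe sets rose. Without shoot 0 h replicate 1 this difference was 0.78 (adjusted p = 0.01). Against 6 h LHCB4.3 was 6.39-fold higher, a log2 difference of 2.68 ± 0.19 (adjusted p = 1.2e-09). That was the 8th largest rise among 15091 probe sets, and 9.75% of them rose past the threshold. This contrast was chosen after the values were seen and joins the lowest and the highest shoot mean of LHCB4.3. Its p-value and rank can therefore overstate the evidence. LHCB4.3 then fell by 0.74 ± 0.19 at 24 h against 12 h, to 833 ± 86.6 at 24 h (adjusted p = 0.0066, 13.8% of probe sets lower). This last call was lost without shoot 12 h replicate 1 (adjusted p = 0.071), without shoot 24 h replicate 2 (adjusted p = 0.073) and once each array's 25S ribosomal RNA signal entered as a covariate (-0.56, adjusted p = 0.11). At 24 h the gene did not differ from 0 h past the threshold (0.34 ± 0.19, 95% interval -0.07 to 0.74, adjusted p = 0.26), and the value depended on which 0 h array was used. It was 0.04 without shoot 0 h replicate 1 (adjusted p = 0.95) and 0.63 without shoot 0 h replicate 2 (adjusted p = 0.048). With the 12 h samples left out, its time course still passed (adjusted p = 5.5e-08).

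**Figure D1:**
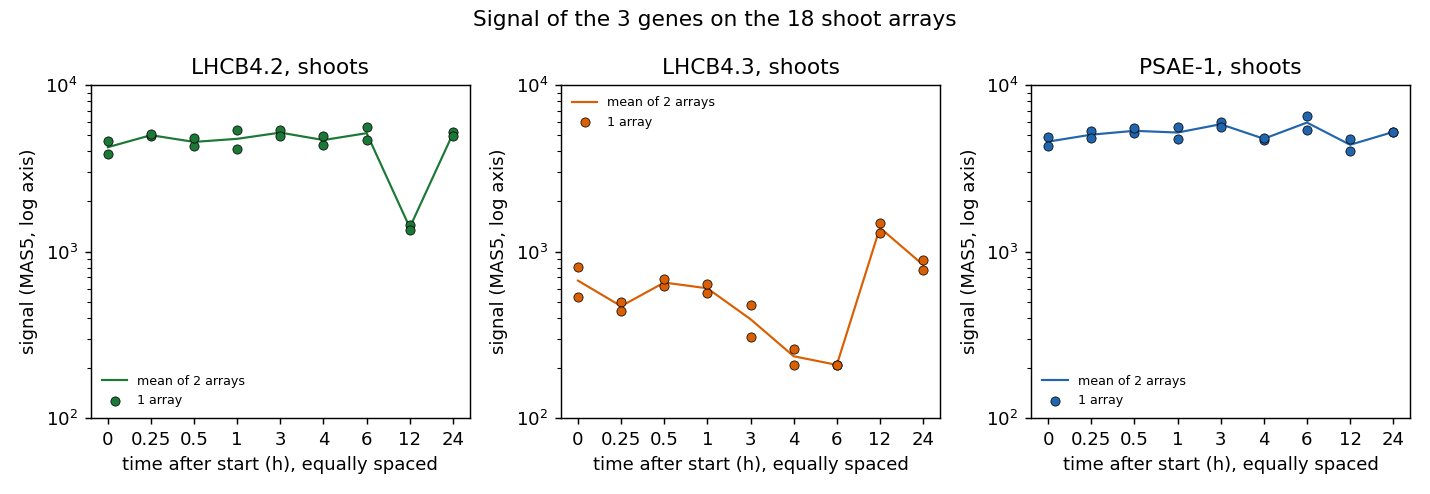
Signal (MAS5, log axis) of LHCB4.2, LHCB4.3 and PSAE-1 on each of the 18 shoot arrays against time in hours after the start, drawn at equal spacing; points are arrays and lines join the means of 2 arrays. LHCB4.2 drops to 1440 and 1350 at 12 h, LHCB4.3 runs between 208 at 6 h and 1480 at 12 h, and PSAE-1 stays between 4010 and 6540.

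PSAE-1 had signals of 4860 and 4280 in shoots at 0 h, 5260 and 4800 at 0.25 h, 5120 and 5490 at 0.5 h, and 4750 and 5610 at 1 h. It had 6000 and 5620 at 3 h, 4680 and 4830 at 4 h, 5350 and 6540 at 6 h, 4740 and 4010 at 12 h, and 5230 and 5210 at 24 h. The 12 h arrays lay below the 6 h arrays but overlapped those of 0 h, and the highest mean (5950 ± 845 at 6 h) was 1.36-fold the lowest (4380 ± 518 at 12 h).

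The time course of PSAE-1 did not pass the F-test (adjusted p = 0.7), and its differences from 0 h lay between -0.06 at 12 h and 0.37 at 6 h, each with an SE of 0.25. The 6 h difference passed in a fit of shoots alone (adjusted p = 0.041). Without shoot 0 h replicate 1 the differences from 0 h lay between 0.03 at 12 h and 0.47 at 6 h, none past the threshold (adjusted p at least 0.29). The 95% interval of its difference between 12 and 6 h, -0.95 to 0.07 around -0.44, holds both no change and a clear fall (adjusted p = 0.23). That difference passed in a fit of shoots alone (-0.44, adjusted p = 0.033) and with a pseudocount of 50 (-0.44, adjusted p = 0.041), but was -0.16 and -0.17 with quantile normalization over all arrays and within each tissue. The highest signal of any probe set was 8880 on the shoot arrays, and whether bright signals are compressed near the top of the scale was not tested.

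**Figure D2:**
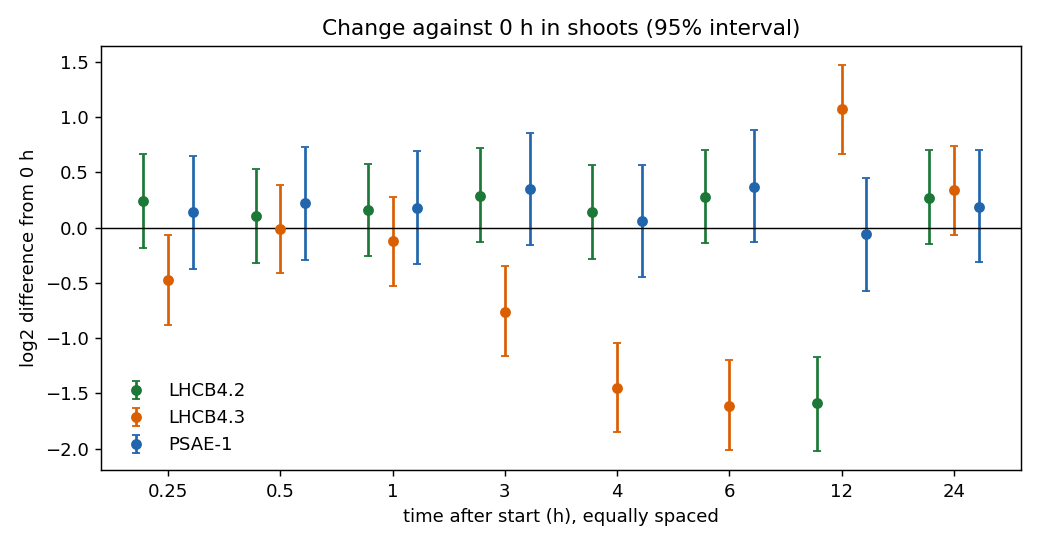
Log2 difference from 0 h in shoots for the 3 genes at each later time, with 95% intervals from the limma fit. At 12 h LHCB4.2 lies at -1.59 and LHCB4.3 at 1.07, while all 8 intervals of PSAE-1 include 0.

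Whether pairs of the 3 genes changed unequally within the light period was tested with the log2 ratio of their signals on the same array, at 3 to 12 h (8 arrays) against 0 to 1 h (8 arrays), for 3 pairs. None passed the two-sided exact permutation test. The change of LHCB4.2 over LHCB4.3 was 0.19 (3.13 ± 1.96 at 3 to 12 h and 2.95 ± 0.314 at 0 to 1 h, SD, n = 8 each; exact p = 0.77, adjusted p = 0.77). That of LHCB4.2 over PSAE-1 was -0.39 (exact p = 0.2, adjusted p = 0.36), and that of LHCB4.3 over PSAE-1 was -0.58 (exact p = 0.24, adjusted p = 0.36). The late samples were not alike, as the SD of 1.96 shows: the ratio of LHCB4.2 to LHCB4.3 reached 4.68 and 4.42 at 6 h and was -0.04 and 0.05 at 12 h, below the range of 2.5 to 4.68 on all other shoot arrays. With the 12 h arrays left out, LHCB4.2 over LHCB4.3 was higher by 1.23 and LHCB4.3 over PSAE-1 changed by -1.24 (exact permutation test, adjusted p = 0.001 each). That choice was made after the values were seen. These tests shuffled single arrays, although the 2 arrays of a time are not separate samples of early or later light. Their p-values can therefore overstate the evidence for a change between early and later light.

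The third gene of the family, LHCB4.1, did not share the size of the fall of LHCB4.2. LHCB4.1 had a signal of 4430 ± 24.6 in shoots at 12 h and 6530 ± 664 at 6 h (SD, n = 2 each). That was a fall of 0.56 ± 0.16 (limma, adjusted p = 0.019). At 12 h against 0 h LHCB4.1 differed by -0.06 ± 0.16 (adjusted p = 0.83). Its shoot time course did not pass the moderated F-test (adjusted p = 0.091). On the same array the log2 ratio of LHCB4.1 to LHCB4.2 was 1.61 and 1.71 at 12 h and between 0.05 and 0.37 on the other 16 shoot arrays, without overlap. How far the probes tell these related transcripts apart was not tested. The ratio of signals of 2 probe sets has no meaning as a ratio of transcripts, and only its change between arrays is read here.

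**Figure D3:**
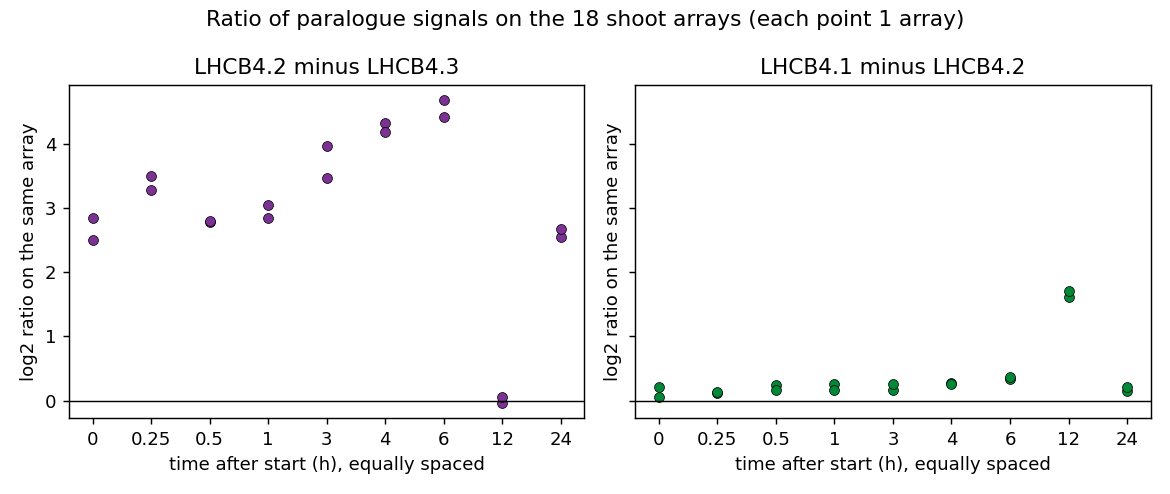
Log2 ratio of LHCB4.2 to LHCB4.3 (left) and of LHCB4.1 to LHCB4.2 (right) on each of the 18 shoot arrays against time in hours, at equal spacing. At 12 h the left ratio is -0.04 and 0.05 and the right ratio 1.61 and 1.71, both apart from every other time.

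The later and earlier parts of the light period were also compared gene by gene. In shoots LHCB4.2 fell by 0.35 ± 0.1 at 3 to 12 h against 0 to 1 h (adjusted p = 0.0082) and LHCB4.3 by 0.53 ± 0.097 (adjusted p = 1e-04), while PSAE-1 differed by 0.05 ± 0.12 (adjusted p = 0.8). In this comparison 21.3% of probe sets fell. The averages hide the opposite positions at 12 h: without the 12 h samples LHCB4.2 differed by 0.11, with the sign turned and no call (adjusted p = 0.46), and LHCB4.3 fell by 1.12 (adjusted p = 1e-08), while 19.5% of probe sets fell.

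Other genes of the apparatus were taken from lists of antenna, photosystem, electron transport, Calvin cycle, chlorophyll and light regulation genes, of which 18 of 101 were named on the array beside the 3 genes. All 18 passed the filter. Between 12 and 6 h in shoots 6 of the 18 fell and 1 rose, where 9.4% of probe sets fell and 9.75% rose. The median of the 18 was -0.55 against -0.03 for all probe sets. These 18 genes were not recomputed under other scalings. For PSAE-1, quantile normalization over all arrays brought the same difference from -0.44 to -0.16. At 12 h against 0 h, 3 of the 18 were higher and the other 15 did not pass, with a median of -0.02 against 0.03 for all probe sets. Of all probe sets 18.5% were higher and 15.9% lower, so 3 of 18 is close to the overall share.

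Among nuclear photosystem genes, PSBY, a small subunit of photosystem II, fell by 0.55 ± 0.16 at 12 h against 6 h (adjusted p = 0.021). PSBW, another small subunit of photosystem II, differed by -0.44 ± 0.21 (adjusted p = 0.15). PSAN, a lumenal subunit of photosystem I, differed by -0.63 ± 0.22 (adjusted p = 0.05, just above the threshold). The shoot time courses of PSBY, PSBW and PSAN did not pass the moderated F-test (adjusted p = 0.12, 0.42 and 0.2). The 12 h arrays of LHCB4.1, PSAN, PSBW and PSBY all lay below every other shoot array, as did those of LHCB4.2 and of 6.51% of all probe sets, but their log2 differences from 0 h were between -0.32 and -0.06. The fall of LHCB4.2 to 27.3% of its 6 h level was numerically larger than that of these 4 genes, of which LHCB4.1 fell to 68% and PSAN stood at 64.5%; the differences between genes were not tested.

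Of the 9 photosystem genes of the plastid genome, 3 fell between 12 and 6 h: psbA, which encodes the D1 protein of the photosystem II core, by 0.9 ± 0.2 (adjusted p = 0.0029), psbB by 0.7 ± 0.22 (adjusted p = 0.026) and psbD, for the D2 protein, by 1.22 ± 0.32 (adjusted p = 0.0096). Of all probe sets 9.4% fell. The plastid genes of photosystem I, psaA, psaB, psaC, psaI and psaJ, differed by -0.56 to -0.22, none past the threshold. Against 0 h at 12 h, psbA and psaC were higher by 0.53 and 0.66 (adjusted p = 0.046 and 0.031). The 25S ribosomal RNA signal in shoots was also lower at 12 h than at 6 h. It was 1030 and 947 at 0 h, 2660 and 2410 at 6 h, and 1520 and 1430 at 12 h. The plastid genes were not recomputed with this signal as a covariate, and its part in their changes was not tested.

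Of the genes for carbon fixation, SBPASE, a bisphosphatase of the Calvin cycle, rose by 0.66 ± 0.15 at 12 h against 6 h (adjusted p = 0.0029), the same direction as LHCB4.3. PRK and RCA differed by 0.24 ± 0.19 and -0.03 ± 0.14 (adjusted p = 0.4 and 0.92). PORB, which reduces protochlorophyllide in chlorophyll synthesis, fell by 2.14 ± 0.26 at 12 h against 6 h (836 ± 6.77 at 12 h and 3740 ± 536 at 6 h, adjusted p = 2.7e-06), and CHLM, a methyltransferase of the same pathway, differed by -0.17 ± 0.14 (adjusted p = 0.45). At 12 h PORB was above its 0 h level by 2.17 ± 0.26 (adjusted p = 8.3e-07), unlike LHCB4.2.

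**Figure D4:**
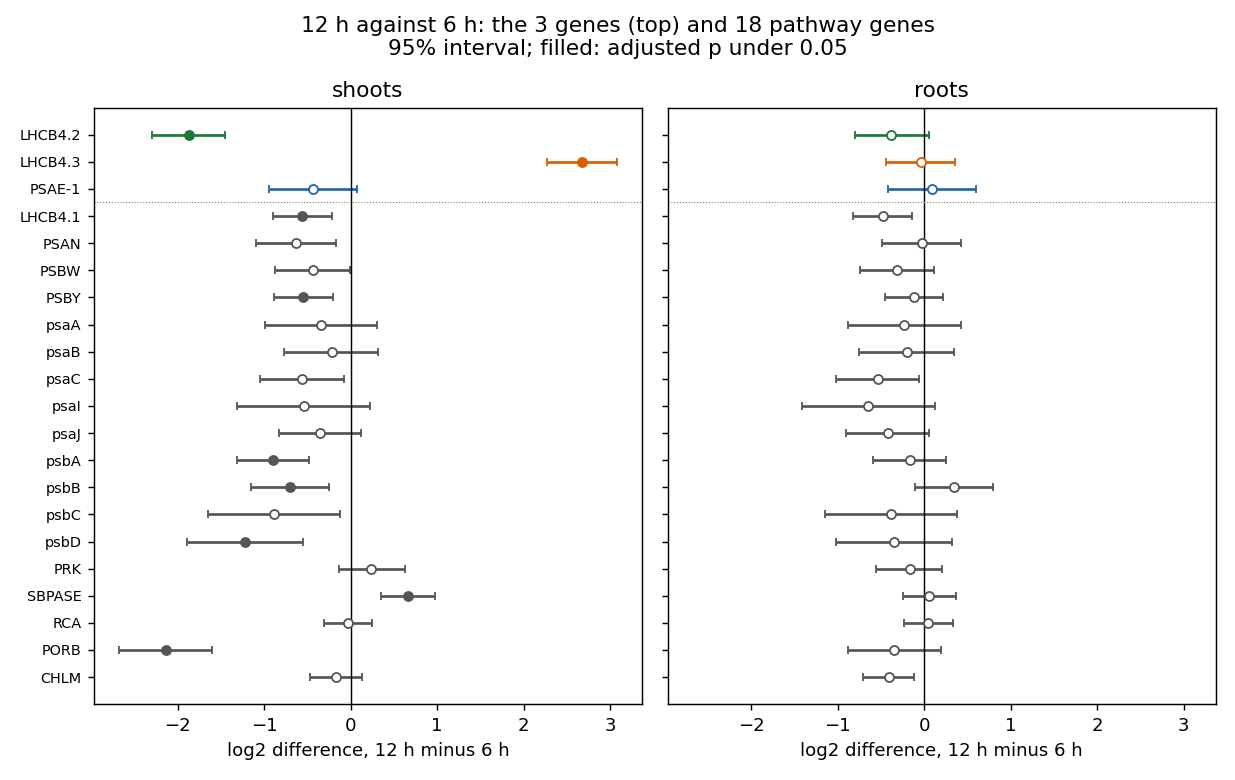
Log2 difference between 12 and 6 h in shoots (left) and roots (right) for the 3 genes and 18 other genes of the photosynthetic apparatus, with 95% intervals; filled points have an adjusted p under 0.05. In shoots LHCB4.3 (2.68) and SBPASE (0.66) are the filled points above 0 and LHCB4.2 lies at -1.87; in roots no point is filled.

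The probe sets most like each gene were found by the Pearson correlation of the 9 shoot means on the log2 scale, among named probe sets whose means spanned at least 0.5. These correlations rest on 9 points from the same arrays and are a description. The nearest to LHCB4.2 were AT1G21500 (0.989), AT5G19940 (0.976), AT2G42220 (0.974), AT1G52530 (0.966) and AT1G74470 (0.964), the last of which is the geranylgeranyl reductase that supplies the phytol tail of chlorophyll. The shoot means of LHCB4.2 spanned 1.89 with 12 h and 0.29 without it, so these correlations rest mainly on 12 h. All 5 were lower at 12 h than at 6 h in shoots, which follows from their choice by correlation. Their log2 differences were -1.93 to -0.76. AT2G42220 came closest in size, with 330 at 12 h and 1280 at 6 h. AT1G52530 had low signals, with 17.7 at 12 h and 45.3 at 6 h.

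The nearest to LHCB4.3 were AT4G28080 (0.984), AT1G11860 (0.963), AT3G26590 (0.957), AT4G15545 (0.953) and LHW (0.95). Their log2 differences at 12 h against 6 h, whose direction follows from the choice, were 0.57 to 1.94, below the 2.68 of LHCB4.3. The time course of PSAE-1 spanned only 0.44, below the 0.5 asked of the other probe sets. It did not pass the F-test (adjusted p = 0.7), so likeness to it may follow variation between arrays. Its nearest were AT5G16240 (0.97), AT5G66560 (0.954), UBC22 (0.899), LHCB4.1 (0.885) and AT2G41200 (0.865). The signals of AT5G16240, AT5G66560 and AT2G41200 were low in shoots, at 43.7, 45.4 and 32.4 at 12 h. Between the genes themselves the correlation was -0.653 for LHCB4.2 and LHCB4.3, 0.667 for LHCB4.2 and PSAE-1, and -0.564 for LHCB4.3 and PSAE-1.

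Roots carried little or no signal of these genes. LHCB4.2 averaged 4440 ± 1200 on shoot arrays, against 34.3 ± 11.1 on root arrays (SD, n = 18 each), PSAE-1 5130 ± 603 in shoots and 40.5 ± 11.1 in roots, and LHCB4.3 606 ± 356 in shoots and 20.3 ± 3.99 in roots. For all 3 genes every shoot array was above every root array, as it was for 17.6% of probe sets. On root arrays the signal reached the filter of 40 on 5 of 18 arrays for LHCB4.2, on 9 for PSAE-1 and on 0 for LHCB4.3. The genes were picked with this contrast between the organs in view, so it is given with no test: the log2 differences were 6.6 ± 0.068, 6.7 ± 0.082 and 4.14 ± 0.065 for LHCB4.2, PSAE-1 and LHCB4.3, beside a median of -0.33 for all probe sets. With root signals this low, their size depends on the pseudocount more than the SE shows: over all alternatives they ran from 5.66 to 7, from 5.84 to 7.03 and from 3.03 to 4.7, the lowest with a pseudocount of 50 and the highest with none. In bulk tissue, fewer cells of a kind and less RNA in each cell cannot be told apart.

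The gap between the organs moved with the time of day. For LHCB4.2 it was 7.05 ± 0.2 at 6 h and 5.56 ± 0.2 at 12 h on the log2 scale, and for LHCB4.3 it was 2.7 ± 0.19 at 6 h and 5.41 ± 0.19 at 12 h. The time courses of shoots and roots differed for LHCB4.2 (moderated F-test of the interaction, adjusted p = 0.0077) and LHCB4.3 (adjusted p = 1.3e-06) and did not pass for PSAE-1 (adjusted p = 0.46), where 40.9% of all probe sets passed. This F-test did not pass for LHCB4.2 without a pseudocount (adjusted p = 0.077). The change at 12 h against 6 h differed between shoots and roots for LHCB4.2 (-1.5 ± 0.29, adjusted p = 0.002) and LHCB4.3 (2.71 ± 0.27, adjusted p = 1.1e-06), as for 8.34% of probe sets. In roots LHCB4.2 was below 40 on 13 of 18 arrays and LHCB4.3 on all 18. Signals that low leave little room for a change in roots, which was -0.38 and -0.04 here. These comparisons of the organs therefore mainly restate the shoot changes and cannot show whether roots have a course of their own. For the change at 12 h against 0 h LHCB4.2 (-1.2 ± 0.29) and LHCB4.3 (0.99 ± 0.27) passed, among 20.7% of probe sets. That call of LHCB4.3 was lost without a pseudocount (adjusted p = 0.056) and without shoot 0 h replicate 1 (0.098), root 0 h replicate 2 (0.075) or shoot 12 h replicate 1 (0.059). For 3 to 12 h against 0 to 1 h LHCB4.3 passed, among 30.6%.

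In roots LHCB4.2 had signals of 31.5 and 26.8 at 0 h, 29.7 and 64.9 at 0.25 h, 40.2 and 42.3 at 0.5 h, and 36.7 and 34.7 at 1 h. It had 36.5 and 25.2 at 3 h, 35.6 and 25.1 at 4 h, 34.1 and 23.9 at 6 h, 20.4 and 19.2 at 12 h, and 45 and 46.5 at 24 h. The 12 h arrays were the lowest of the 18, and both 24 h arrays were above all others but the 64.9 at 0.25 h. The share of all probe sets with such positions in roots was not determined, and most of these signals were below 40. Of the 3 genes LHCB4.2 alone passed the F-test over time in roots (adjusted p = 0.033), where 17.6% of probe sets did. It rose by 0.9 ± 0.2 at 24 h against 12 h (45.8 ± 1.05 at 24 h and 19.8 ± 0.805 at 12 h, SD, n = 2 each; adjusted p = 0.016; 1.3% of probe sets rose) and fell by 0.36 ± 0.1 at 3 to 12 h against 0 to 1 h (adjusted p = 0.034; 3.99% fell).

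LHCB4.2 was not alone among the listed genes in roots. Of the 18 others, RCA rose by 0.87 ± 0.14 at 24 h against 12 h (limma, adjusted p = 0.00041) and 17 did not pass. Their median was 0.37, against -0.01 for all probe sets. At 3 to 12 h against 0 to 1 h RCA differed by -0.73 ± 0.068 (adjusted p = 1.4e-07). PSAN differed by -0.37 ± 0.11 (adjusted p = 0.04), and the other 16 did not pass. The root calls of LHCB4.2 were fragile. The F-test was lost with a pseudocount of 50 (adjusted p = 0.12), with no filter (0.052), with roots alone (0.13) and without 12 h replicate 1 (0.096) or 2 (0.11), 24 h replicate 1 (0.055) or 2 (0.06) or 1 h replicate 1 (0.052). The rise at 24 h was lost without any of the 4 arrays of 12 and 24 h (adjusted p = 0.11 and 0.14 for 12 h replicates 1 and 2, and 0.073 and 0.13 for 24 h replicates 1 and 2). The fall at 3 to 12 h against 0 to 1 h was lost without any 1 of 10 root arrays (adjusted p = 0.056 to 0.1). The rise at 24 h measured 0.46 with the pseudocount of 50 (adjusted p = 0.081). The median share of shoot signal left on root arrays, over 307 probe sets bright in shoots and dimmer in roots by 16-fold or more, moved the same way. It was 1.9 and 1.8% at 12 h, the lowest of all root arrays, and 2.41 and 2.55% at 24 h, in a range of 1.8 to 2.55%. LHCB4.2 stood at 0.458 and 0.433% of its mean shoot signal at 12 h and at 1.01 and 1.05% at 24 h. The part of this material in the root values was not tested.

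LHCB4.3 in roots ran between 12 and 28.9 with a median of 20, below the filter on every array, and its time course did not pass (adjusted p = 0.47). At 12 h in roots it had 23.4 and 22.4, against 28.9 and 19.3 at 6 h, with overlap and a log2 difference of -0.04 ± 0.19 (95% interval -0.44 to 0.36). PSAE-1 in roots ran between 20.2 and 62 with a median of 38.7 (adjusted p = 0.42), and its largest gap between replicates was at 4 h, with 55.6 and 20.2. Without root 4 h replicate 1 the root time course of PSAE-1 passed (adjusted p = 0.035) and its fall at 3 to 12 h against 0 to 1 h was -0.44 (adjusted p = 0.0072), where all arrays gave -0.3 ± 0.12 (adjusted p = 0.16).

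**Figure D5:**
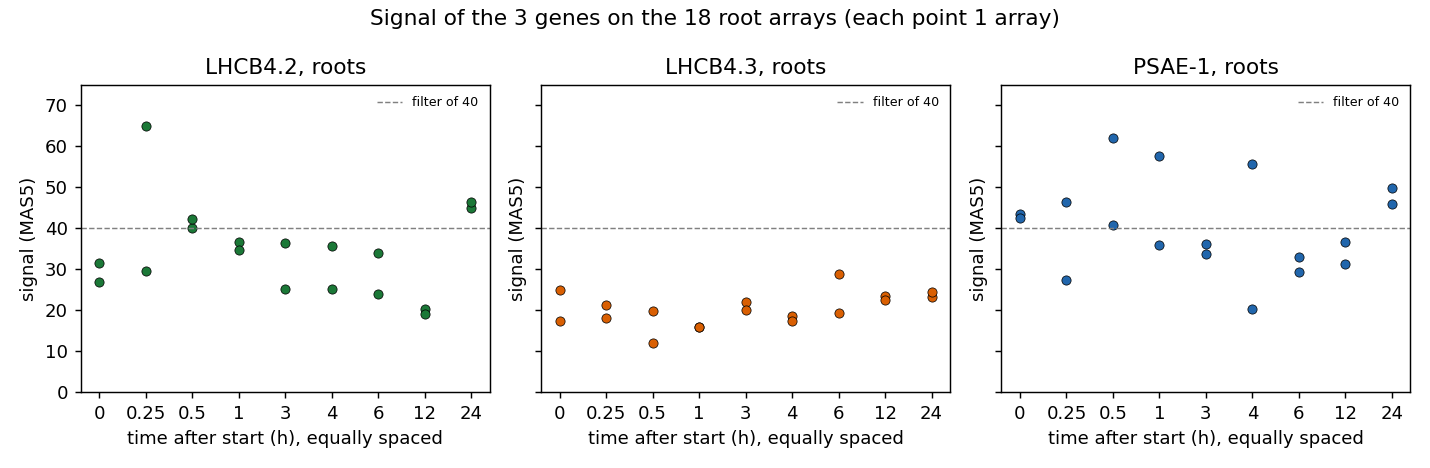
Signal (MAS5, linear axis) of the 3 genes on each of the 18 root arrays against time in hours, at equal spacing; the dashed line is the filter of 40. LHCB4.3 is below the line on all arrays, and LHCB4.2 is lowest at 12 h, with 20.4 and 19.2.

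The 25S ribosomal RNA control signal, a measure of RNA make-up, also moved in shoots: it was 1030 and 947 at 0 h, 2660 and 2410 at 6 h, 1520 and 1430 at 12 h, and 1100 and 815 at 24 h. With this signal as a covariate the difference between 12 and 6 h was -1.58 for LHCB4.2 (adjusted p = 0.00035) and 2.89 for LHCB4.3 (adjusted p = 1.2e-07). With quantile normalization over all arrays the same differences were -1.55 and 2.48. The part of RNA make-up in these results was not tested further.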

How the data were processed

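Total RNA was labelled with biotin and read on 36 arrays. Per the submitters' processing notes, the deposited intensity of each probe set came from MAS5; the version was not stated in the notes used here. Trimmed means (2% off each end) were 100.007 to 100.01, so arrays were scaled no further. The 64 control probe sets were set aside. Values were analysed as log2(signal + 10), and limma 3.58.1 in R 4.3.3 fitted 18 group means in 1 fit, with 18 residual and 4.06 prior degrees of freedom; log2 differences understate changes of low signals. Adjusted p-values (Benjamini-Hochberg, two-sided) under 0.05 passed. Names came from the platform's probe table (1 gene for 13513 probe sets, several for 503, none for 8794). Of those with 1 gene, 13436 matched the TAIR10.1 gene table and 8117 passed the filter. Plastid genes were matched by symbol.

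Named were the 3 genes, LHCB4.1, the 2 most extreme listed pathway genes each way per list and the 5 probe sets most like each gene. PSAE-2 was unnamed in the probe table. Further pathway genes were named after their values were seen. Genes and lists were chosen with earlier results of these data known, and the contrast of 12 against 6 h and the omission of 12 h after the values were seen.

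Alternatives were other pseudocounts (none, 50), filters (none, 100), scalings (quantile, median), a trend and robust prior, 1 tissue alone, a replicate block, the 25S covariate and each array left out. Replicate numbers did not pair the tissues: deviations of same-numbered arrays correlated at -0.115 to 0.05. The procedure was also run on simulated data with independent noise around flat means and changes added only at 12 h in shoots. That setting is simpler than these data, so it does not bear on single calls here.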

Additional observations from a re-analysis of the deposited data

Results flagged for a closer look

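The time courses of shoots and roots differed for LHCB4.2 (moderated F-test of the interaction in limma, adjusted p = 0.0077), but not without a pseudocount (adjusted p = 0.077). Its change at 12 h against 6 h was lower in shoots than in roots by a log2 difference of -1.5 (adjusted p = 0.002), and its change at 12 h against 0 h by -1.2 (adjusted p = 0.0049). In roots LHCB4.2 was below 40 on 13 of 18 arrays, which limits what its root course can show.

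The time courses also differed for LHCB4.3 (adjusted p = 1.3e-06). Its change at 12 h against 6 h was higher in shoots than in roots by 2.71 (adjusted p = 1.1e-06) and its change at 12 h against 0 h by 0.99 (adjusted p = 0.013). The change at 3 to 12 h against 0 to 1 h was lower in shoots by -0.7 (adjusted p = 0.00047). That change was -0.53 in shoots and 0.16 in roots, where the signal of LHCB4.3 was below 40 on all arrays. Root signals that low cannot show whether roots have a course of their own. The call of 0.99 was lost without shoot 0 h replicate 1 (0.69, adjusted p = 0.098), root 0 h replicate 2 (0.82, adjusted p = 0.075) or shoot 12 h replicate 1 (0.9, adjusted p = 0.059), and without a pseudocount (0.95, adjusted p = 0.056).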

How the results depend on the processing

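Of 4288 values recomputed under the alternatives, 4234 kept their direction and their side of the threshold, 40 lost and 13 gained a call, and 1 reversed. The falls of LHCB4.2 and rises of LHCB4.3 at 12 h against 6 h in shoots passed in every alternative, at -1.99 to -1.55 and 2.48 to 2.89. This contrast was itself chosen after the values were seen. With the 12 h samples left out, an alternative chosen after seeing the data, LHCB4.2 had an adjusted p of 0.84 for its shoot and 0.17 for its root time course, its difference at 3 to 12 h against 0 to 1 h was 0.11 in shoots (reversed) and -0.25 in roots, and the ratios of LHCB4.2 to LHCB4.3 and of LHCB4.3 to PSAE-1 changed by 1.23 and -1.24. Fewer samples enter that setting; the cause of the other changes was not tested. The root time course of LHCB4.2 had an adjusted p of 0.12 with a pseudocount of 50, 0.052 with no filter and 0.13 with roots alone. Its root difference at 3 to 12 h against 0 to 1 h was -0.18, -0.36 and -0.36 in these settings (adjusted p = 0.092, 0.051 and 0.091), and at 24 h against 12 h in roots 0.46 with the pseudocount of 50 and 0.9 with roots alone (adjusted p = 0.081 and 0.085). Its difference between the tissues' time courses had an adjusted p of 0.077 without a pseudocount. For LHCB4.3, 24 h against 12 h in shoots was -0.56 with the 25S covariate. For PSAE-1, 12 h against 6 h in shoots passed at -0.44 with a pseudocount of 50 and at -0.44 with shoots alone.

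With each array left out in turn, the adjusted p of the root time course was 0.0011 to 0.11 for LHCB4.2 and 0.035 to 0.59 for PSAE-1. The root difference at 3 to 12 h against 0 to 1 h was -0.47 to -0.24 for LHCB4.2, lost without 0 h replicate 1, 12 h or 1 h replicate 1 or 2, or replicate 2 of 0.25, 0.5, 3, 4 or 6 h, and -0.44 to -0.16 for PSAE-1. The change at 24 h against 12 h was -0.84 to -0.63 for LHCB4.3 in shoots and 0.88 to 0.93 for LHCB4.2 in roots. A group left with 1 array is assumed to vary like the others. The replicate number as a block changed no call among 93 results: 12 h against 6 h in shoots was -1.87 for LHCB4.2 and 2.68 for LHCB4.3 (adjusted p = 1.2e-06 and 3.1e-09), and the root time course of LHCB4.2 had an adjusted p of 0.04. Signals in roots lie mostly under 40, which limits what their changes can show.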
